A study of Mus musculus with 26 samples.

Results

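The 34 genes described here encode the enzymes of the citric acid cycle with respiratory complex II, the enzymes of the malate-aspartate shuttle, and the enzymes that break down leucine, isoleucine and valine. They were chosen by gene symbol, and all 34 were found among the 47642 genes with counts. Transcripts were counted in cardiac left ventricles of male mice aged 40 days with 3′ end RNA sequencing, which reads a tag next to the poly(A) tail. Mice carried the allele UtyGt(XS0378)Wtsi, in which a trap cassette sits in intron 4 of Uty, a histone demethylase gene of the Y chromosome, or were wild-type mice of the isogenic strain C57BL/6.Y<129P2>. Mice of each genotype were castrated or had a sham operation when about 10 days old. The groups were gene-trap castrated (n = 7), wild-type castrated (n = 7), gene-trap sham (n = 6) and wild-type sham (n = 6). All mice had undergone surgery, so that no group was unoperated, and the labels do not say whether each sample was 1 animal. The p-values therefore measure the spread between the deposited samples.

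The citric acid cycle oxidises acetyl-CoA in the mitochondrial matrix and passes the electrons to the respiratory chain, and the heart, which works continuously, is rich in its enzymes. The malate-aspartate shuttle carries reducing equivalents of cytosolic NADH into the matrix through paired cytosolic and mitochondrial malate dehydrogenases and aspartate aminotransferases. Branched-chain amino acids are first transaminated and then decarboxylated by the branched-chain ketoacid dehydrogenase, which a kinase, Bckdk, switches off and a phosphatase, Ppm1k, switches on. The remaining steps deliver acetyl-CoA and succinyl-CoA, so the pathway feeds the cycle.

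Libraries held 6357485 to 9399241 gene counts and detected 15442 to 16903 genes. Levels are in CPM (counts scaled to a common library size and corrected for composition), and 3 counts, taken as the most that a 0 can hide, equal 0.319 to 0.472 CPM. Uty itself had 0 to 1.06 CPM in gene-trap and 6.56 to 11.8 CPM in wild-type libraries. The ventricular identity was checked with markers: the summed level of 10 cardiomyocyte genes was 56371 to 119729 CPM over the libraries, that of 5 atrial genes 156 to 678 CPM, and atrial Bmp10 was at 0 in every library. Of the wild-type sham libraries, replicates 1 to 5 lay apart from the other groups along the first principal component (35.6% of the variance), and replicate 6 did not. Wild-type castrated replicate 5 lay towards wild-type sham, and gene-trap castrated replicates 1 to 4 lay apart along the second component (10.4%). Where these libraries changed a count of genes or ratios that passed, the count without them is given too.

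All 34 genes passed the filter on low counts in every comparison. Group means lay between 4.99 ± 1.17 CPM for Mccc2, a subunit of methylcrotonyl-CoA carboxylase, and 2598 ± 291 CPM for Idh2, the NADP-dependent mitochondrial isocitrate dehydrogenase, both in wild-type sham ventricles (SD, n = 6). Levels of different genes are not otherwise ranked. The most variable gene was Sdhd, a membrane anchor of complex II, which had 10.3, 53.2 and 112 CPM (lowest, median and highest) in gene-trap castrated libraries. Its values were 56.0, 78.7 and 329 CPM in wild-type castrated, 10.95, 38.1 and 87.2 CPM in gene-trap sham and 6.49, 12.6 and 50.1 CPM in wild-type sham libraries. Most Sdhd values thus came from modest counts, between 45 and 2783 reads a library.

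The starts of 4 genes are shown so that control regions of genes that differed in opposite directions can be compared: Mdh2 and Bckdk were lower, and Fh1 and Sdhd higher, in wild-type castrated than in wild-type sham ventricles. The sequences are those of RefSeq on GRCm38.p6, from 250 bases before to 50 after the annotated start, written 5′ to 3′ on the gene's strand. Capitals mark matches, on either strand, to 4 motifs. The extended half-site of oestrogen-related receptors was searched as TCAAGGTCA. The core of the site of the nuclear respiratory factor NRF1 was searched as GCGCATGCG. The GC box bound by Sp-family factors was searched as GGGCGG. The box bound by the factor NF-Y was searched as CCAAT. The Mdh2 window is chr5:135778399-135778698 (plus strand), that of Bckdk chr7:127903823-127904122 (plus strand), that of Fh1 chr1:175625586-175625885 (minus strand) and that of Sdhd chr9:50603800-50604099 (minus strand).
Mdh2: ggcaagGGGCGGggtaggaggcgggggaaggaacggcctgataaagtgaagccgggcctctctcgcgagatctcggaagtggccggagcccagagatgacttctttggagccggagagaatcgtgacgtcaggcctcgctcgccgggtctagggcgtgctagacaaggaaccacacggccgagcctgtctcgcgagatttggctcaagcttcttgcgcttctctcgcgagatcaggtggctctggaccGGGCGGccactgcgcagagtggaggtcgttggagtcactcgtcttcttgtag
Bckdk: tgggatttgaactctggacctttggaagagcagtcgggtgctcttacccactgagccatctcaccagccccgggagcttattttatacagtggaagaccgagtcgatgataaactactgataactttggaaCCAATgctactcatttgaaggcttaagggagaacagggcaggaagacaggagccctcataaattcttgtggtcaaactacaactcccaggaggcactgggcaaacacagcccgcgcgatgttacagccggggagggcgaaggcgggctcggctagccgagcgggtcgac
Fh1: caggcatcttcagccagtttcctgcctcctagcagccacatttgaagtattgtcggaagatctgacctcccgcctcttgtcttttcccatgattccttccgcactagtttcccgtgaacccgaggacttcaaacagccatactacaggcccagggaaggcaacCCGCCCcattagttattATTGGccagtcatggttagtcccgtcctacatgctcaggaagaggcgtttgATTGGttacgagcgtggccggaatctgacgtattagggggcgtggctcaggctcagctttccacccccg
Sdhd: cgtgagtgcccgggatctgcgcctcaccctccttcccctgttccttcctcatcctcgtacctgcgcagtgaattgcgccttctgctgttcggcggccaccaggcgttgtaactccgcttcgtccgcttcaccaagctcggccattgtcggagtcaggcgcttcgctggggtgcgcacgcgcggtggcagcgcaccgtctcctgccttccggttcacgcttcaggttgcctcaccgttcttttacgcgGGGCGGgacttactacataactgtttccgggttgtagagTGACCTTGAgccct
Mdh2 held 2 GC boxes, Bckdk 1 NF-Y box, Fh1 2 NF-Y boxes and 1 GC box, and Sdhd 1 extended half-site and 1 GC box. Of the 34 genes, 31 matched an entry, with 39 windows. The extended half-site occurred in 1 of the 31 genes, Sdhd, and in 0.423% of all 32851 windows of this length. The NRF1 core occurred in 2, Ogdh and Pccb, and in 1.75% of all windows. NF-Y boxes were found in 19 of the 31 and in 37.4% of all windows, and GC boxes in 18 and 35.7%. The plain half-site of nuclear receptors, AGGTCA, which overlaps the extended one, occurred in 12 of the 31 genes and in 16.3% of all windows. The half-site of the androgen receptor, AGAACA, occurred in 5 of the 31 genes and in 19.0% of all windows. Genes with several starts have several windows, so shares of genes and of windows are not on the same base.

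The first comparison asks what the trap changed in ventricles of mice with testes. In gene-trap sham ventricles, transcripts of the branched-chain ketoacid dehydrogenase subunit Bckdha, its kinase Bckdk and the transaminase Bcat2 fell relative to wild-type sham, as did the mitochondrial shuttle enzymes Mdh2 and Got2. In the cycle itself Idh3g, a subunit of the NAD-dependent isocitrate dehydrogenase, Idh2, and the iron-sulfur subunit Sdhb of complex II fell, while citrate synthase Cs and the partner subunit Idh3b rose. That made 10 of 34 genes past an adjusted p of 0.05 in edgeR's quasi-likelihood test, 2 higher and 8 lower (29.4%). Of all 11569 genes tested, 26.3% passed, 11.9% higher and 14.3% lower, so the share of the 34 lay near the background. The median log2 fold change was 0.20 over the 34 genes and 0.022 over all genes tested.

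Bckdha, the alpha subunit of the first component of the branched-chain complex, had 52.0, 58.6 and 67.7 CPM (lowest, median and highest) in gene-trap sham and 80.1, 106 and 141 CPM in wild-type sham libraries. Every gene-trap sham library lay below every wild-type sham library. Bckdha was the 1 of the 34 genes with no overlap in this comparison, against 7.61% of all genes tested. Without wild-type sham replicate 6, further genes had no overlap, among them Idh3g, Mdh2 and Sdhc. The share of all genes without that library was not counted. The log2 fold change of Bckdha was -0.88 (± 0.13 SE, adjusted p = 0.00037 by edgeR). Exons of B3gnt8 lie antisense to its last bases, and whether the authors counted by strand is unknown here, so its reads and those of B3gnt8 may not be separated.

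Mdh2, the mitochondrial malate dehydrogenase, had 1125, 1274 and 1729 CPM in gene-trap sham and 1725, 2137 and 3362 CPM in wild-type sham libraries. The groups touched at gene-trap sham replicate 5 and wild-type sham replicate 6, and the log2 fold change was -0.79 (± 0.15 SE; adjusted p = 0.0019 by edgeR). Idh3g, a regulatory partner of the catalytic subunit Idh3a, had 212, 251 and 278 CPM in gene-trap sham and 275, 452 and 567 CPM in wild-type sham libraries. All gene-trap sham libraries lay below wild-type sham replicates 1 to 5, and wild-type sham replicate 6, at 275 CPM, lay among them; the log2 fold change was -0.77 (± 0.14 SE; adjusted p = 0.0013 by edgeR).

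Got2, the mitochondrial aspartate aminotransferase, had 339, 360 and 596 CPM in gene-trap sham and 516, 593 and 837 CPM in wild-type sham libraries. A single gene-trap sham library, replicate 5, reached the wild-type range, and the log2 fold change was -0.62 (± 0.15 SE; adjusted p = 0.0058 by edgeR). Of the 31-base words in the last 400 nt of Got2 transcripts, 18.9% recur elsewhere, mostly in the pseudogene Got2-ps1, so part of its reads may be lost or shared. Bckdk, the inhibitory kinase, had 81.5, 92.5 and 121 CPM in gene-trap sham and 118, 130 and 163 CPM in wild-type sham libraries, with log2 fold change -0.43 (± 0.12 SE; adjusted p = 0.013 by edgeR). Bcat2, the mitochondrial branched-chain transaminase, had 31.99, 37.7 and 51.2 CPM in gene-trap sham and 40.4, 50.7 and 67.7 CPM in wild-type sham libraries, with log2 fold change -0.40 (± 0.14 SE; adjusted p = 0.038 by edgeR). For Bckdk 1 gene-trap sham library, at 121 CPM, lay inside the wild-type sham range, and for Bcat2 the ranges overlapped over several libraries.

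**Figure D1:**
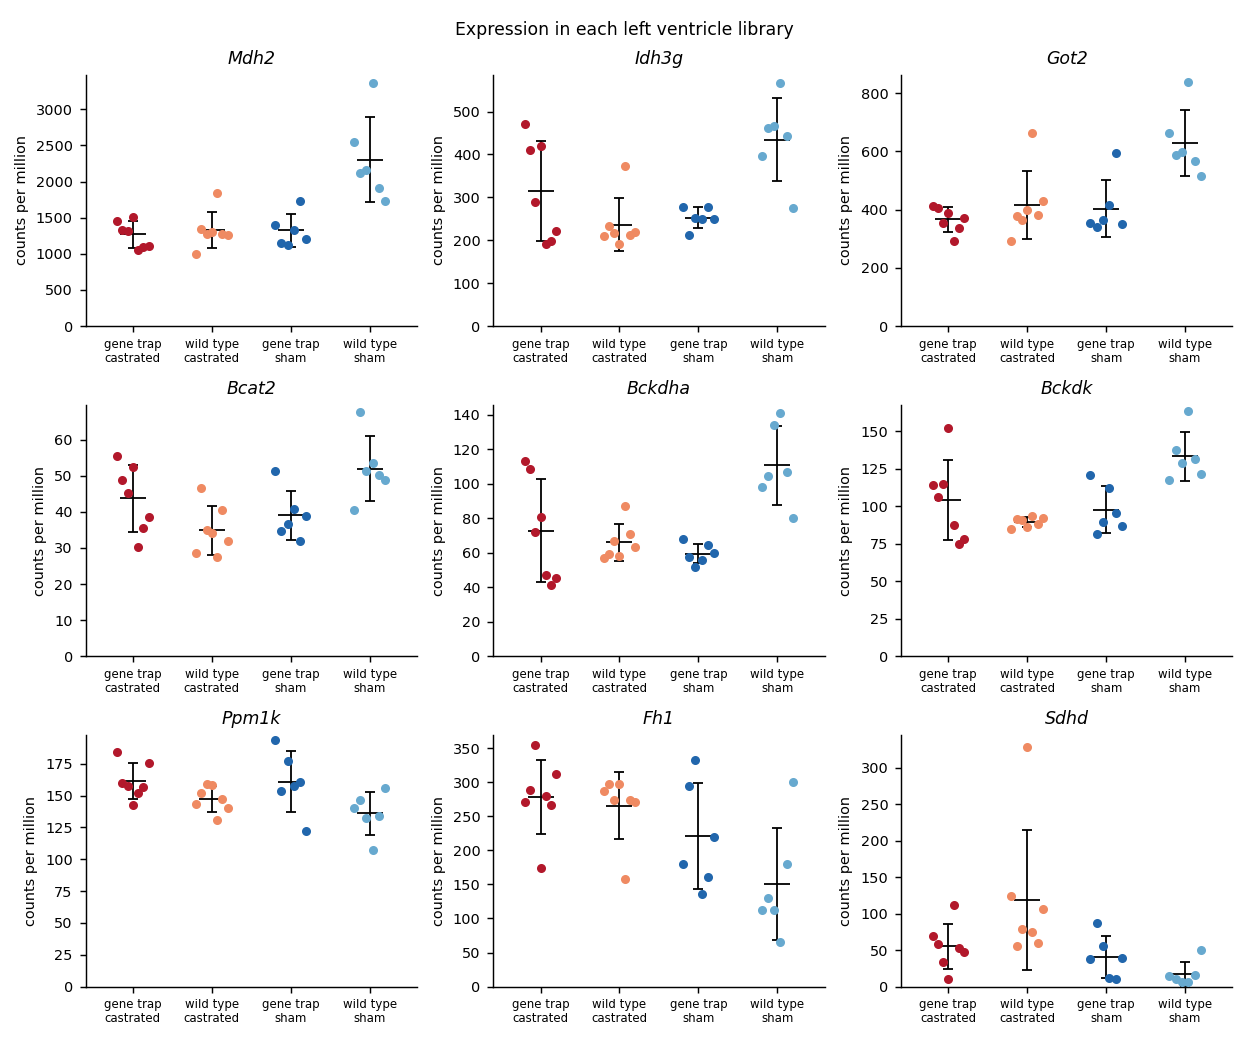
CPM of 9 of the genes (vertical axes, each from 0) in each library (points) of the 4 groups; horizontal bars are group means and vertical bars ± 1 SD (n = 7, 7, 6 and 6 from left to right). By its mean, wild-type sham was the highest group for Mdh2, Idh3g, Got2, Bckdha and Bckdk and the lowest for Fh1 and Sdhd. Some gene-trap castrated libraries lay within the wild-type sham range for genes such as Idh3g, Bckdha and Bckdk. Wild-type sham replicate 6 and wild-type castrated replicate 5 lay towards each other's groups for Mdh2, Idh3g, Got2, Bckdha and Fh1.

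Of the other genes that passed in sham ventricles, Cs and Idh3b each had a log2 fold change of 0.43 (SE 0.15), Idh2 of -0.35 and Sdhb of -0.37. Idh3b overlaps exons of Nop56 on the other strand at its end. Ppm1k, the activating phosphatase, had 122, 159 and 193 CPM in gene-trap sham and 107, 137 and 156 CPM in wild-type sham libraries, with log2 fold change 0.26 that did not pass (± 0.12 SE; adjusted p = 0.12 by edgeR). Dbt, the core subunit of the branched-chain complex, was at 0.44 and did not pass (± 0.17 SE; adjusted p = 0.060 by edgeR). Sdhd had the largest log2 fold change of the 34, 1.25, and did not pass (± 0.65 SE; adjusted p = 0.17 by edgeR). Of the 8 genes of the later branched-chain steps none passed in sham ventricles, with log2 fold changes between -0.022 for Ivd and 0.54 for Hibadh.

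The sham count moved with single libraries. Without gene-trap sham replicate 2, 3 or 7, or wild-type sham replicate 2, 3 or 4, 5 genes passed, without wild-type sham replicate 1 6 genes, and without wild-type sham replicate 6 17 genes (8 higher and 9 lower). The share of all genes moved too: it was 18.4% to 21.1% in the fits with 5 genes, 23.5% without wild-type sham replicate 1 and 37.7% without wild-type sham replicate 6. Idh3g, Mdh2, Got2, Bckdha and Bckdk passed in all 12 of these fits. By the authors' deposited table, Bckdha, Bckdk, Mdh2, Bcat2 and Got2, 5 of the 34 genes, were lower in gene-trap sham ventricles and 0 higher. Of all 11584 genes with an adjusted p in that table, 11.9% passed, 711 of them higher and 665 lower.

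The second question is what castration changed in wild-type ventricles. In wild-type castrated ventricles 4 of 6 genes of the entry steps of branched-chain breakdown fell (Bcat2, Bckdha, Bckdhb, the partner of Bckdha, and Bckdk). The other two did not pass, with log2 fold changes of 0.36 for Dbt and 0.11 for Ppm1k. Genes that fell included the shuttle enzymes Mdh2, Got1 and Got2, Got1 being the cytosolic aminotransferase. In the later branched-chain steps 4 of 8 genes rose: the methylcrotonyl-CoA carboxylase subunit Mccc2, the valine enzymes Hibch and Hibadh, and the propionyl-CoA carboxylase subunit Pccb. In the cycle Cs, the GDP-forming succinyl-CoA ligase subunit Suclg2 and the fumarase Fh1 rose with Sdhd, whereas Idh2, Idh3g and Sdhb fell. In all, 18 of 34 genes passed (52.9%), 8 higher and 10 lower, against 40.3% of all 12291 genes tested, 19.1% higher and 21.3% lower. The median log2 fold change was 0.094 over the 34 genes and -0.018 over all genes tested. This comparison and the sham genotype comparison share the wild-type sham libraries, so their values for a gene are not independent of each other.

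Mdh2 had 1003, 1280 and 1847 CPM in wild-type castrated libraries, against the wild-type sham values above, and its log2 fold change was -0.79 (± 0.14 SE; adjusted p = 0.00030 by edgeR). The highest wild-type castrated value, in replicate 5, was the only one above the lowest wild-type sham value. Idh3g had 191, 217 and 373 CPM in wild-type castrated libraries, with replicate 5 again apart from the other 6, which lay at or below 233 CPM; the log2 fold change was -0.88 (± 0.19 SE; adjusted p = 0.0011 by edgeR). Bckdk had 84.7, 91.0 and 93.2 CPM in wild-type castrated libraries, all below every wild-type sham library, and a log2 fold change of -0.57 (± 0.13 SE; adjusted p = 0.0014 by edgeR).

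Sdhd lay higher in every wild-type castrated library than in any wild-type sham library, with log2 fold change 2.78 (± 0.62 SE; adjusted p = 0.0018 by edgeR). Sdhd and Bckdk were the 2 of 34 genes whose groups did not overlap in this comparison, against 6.83% of all genes tested. Without wild-type sham replicate 6 and wild-type castrated replicate 5, further genes had no overlap. Among them were Idh3g (wild-type castrated up to 233 CPM, wild-type sham from 397 CPM) and Fh1 (from 271 CPM and up to 179 CPM). The share of all genes without these libraries was not counted. Of the other complex II genes, Sdha, the flavoprotein subunit, had a log2 fold change of -0.17 and Sdhc, the second anchor, one of 0.28, neither past the threshold, and Sdhb had one of -0.52 (± 0.14 SE; adjusted p = 0.0058 by edgeR). Bckdha had 57.0, 63.1 and 87.3 CPM in wild-type castrated libraries, again with replicate 5 highest, and a log2 fold change of -0.74 (± 0.19 SE; adjusted p = 0.0029 by edgeR). Got2 had 291, 380 and 663 CPM in wild-type castrated libraries, with log2 fold change -0.60 (± 0.15 SE; adjusted p = 0.0030 by edgeR), and Bcat2 27.5, 34.3 and 46.7 CPM, with log2 fold change -0.58 (± 0.15 SE; adjusted p = 0.0029 by edgeR). Replicate 5 was the highest wild-type castrated library for Got2 and the lowest for Bcat2.

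Suclg2, the beta subunit that makes GTP, had 45.3, 80.5 and 102 CPM in wild-type castrated and 20.6, 56.3 and 79.6 CPM in wild-type sham libraries, with log2 fold change 0.53 (± 0.20 SE; adjusted p = 0.034 by edgeR). It passed in 7 of 13 fits without 1 library, with log2 fold changes from 0.36 without wild-type sham replicate 4 to 0.67 without wild-type sham replicate 6, and with the GC trend removed it was at 0.43 and did not pass. Sucla2, the ATP-forming beta subunit of the same ligase, had 642, 733 and 963 CPM in wild-type castrated and 736, 783 and 847 CPM in wild-type sham libraries. Its log2 fold change of -0.05 did not pass (± 0.10 SE; adjusted p = 0.70 by edgeR). Fh1 rose by 0.82 (SE 0.25), Hibadh by 0.82 (SE 0.27), Hibch by 0.77 (SE 0.23) and Mccc2 by 1.02 (SE 0.32) on the log2 scale. For Fh1 and Hibadh, wild-type castrated replicate 5 was the lowest of its group, at 157 and 131 CPM, and wild-type sham replicate 6 the highest of its group, at 300.3 and 268 CPM.

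With both of these libraries left out, a fit added after seeing the data, 23 of 34 genes passed, 13 higher and 10 lower, including all 18 named above; of all genes 48.9% passed in that fit. Leaving out single libraries gave 14 to 23 genes and 29.4% to 45.2% of all genes. Over the 34 genes, wild-type sham replicate 6 was the highest of its group for 15 and the lowest for 9, and wild-type castrated replicate 5 was the highest of its group for 8 and the lowest for 15.

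**Figure D2:**
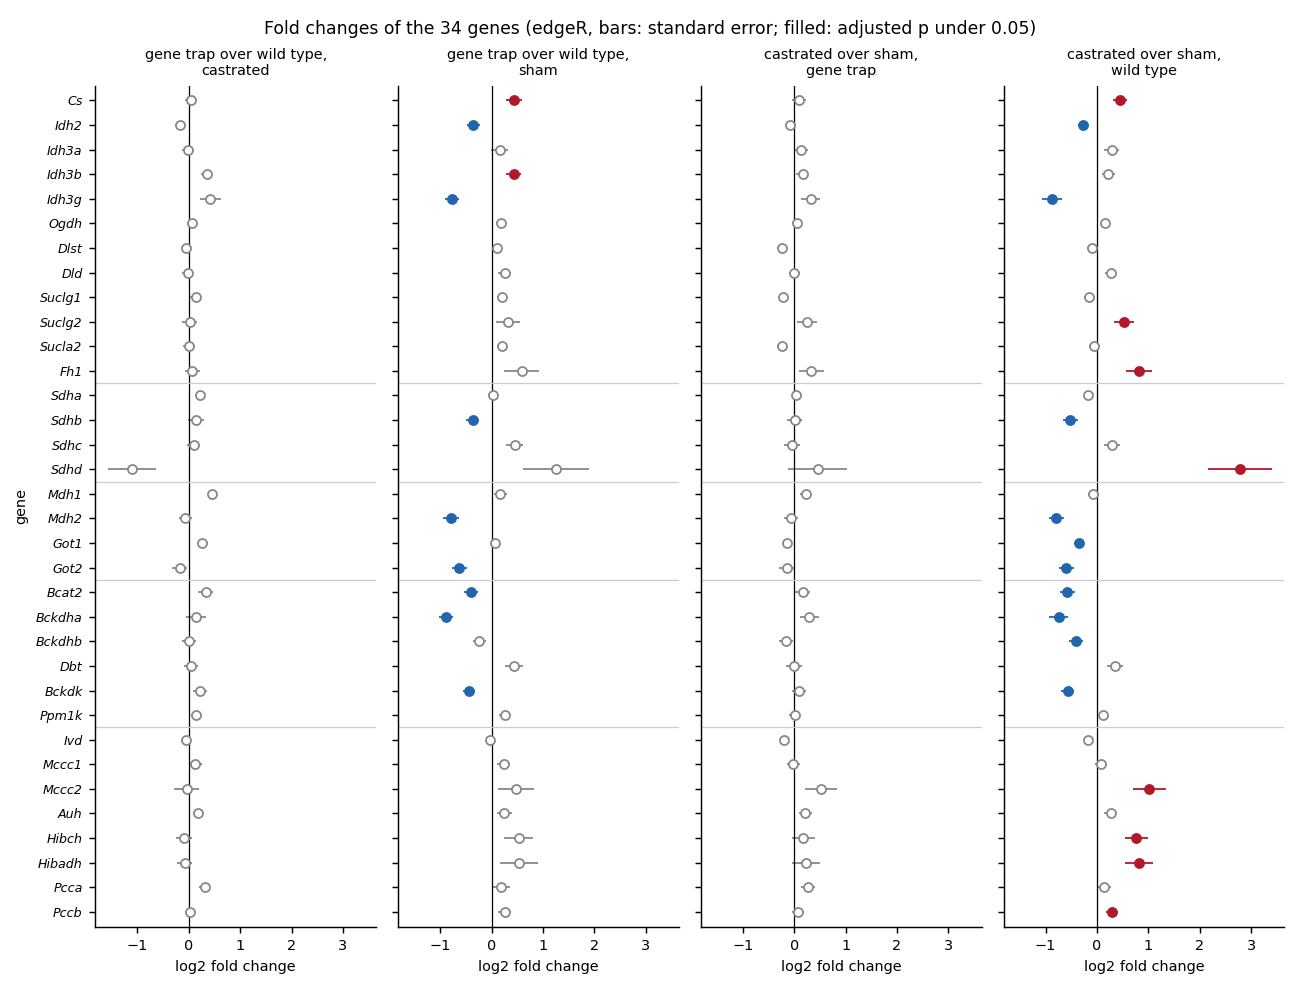
Log2 fold changes (horizontal axis) of the 34 genes (rows; grey lines divide the cycle, complex II, the shuttle, and the entry and later steps of branched-chain breakdown) in 4 comparisons, with standard errors as bars; filled points passed an adjusted p of 0.05 in edgeR, red higher and blue lower. Filled points appear only in the 2 comparisons against wild-type sham, 10 for the trap in sham and 18 for castration in wild type.

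Cell type markers moved in the same comparisons. In wild-type castrated against wild-type sham ventricles, 6 of 10 cardiomyocyte markers, 3 of 6 endothelial and 5 of 5 erythroid markers were lower, and 5 of 8 fibroblast markers and 1 endothelial marker higher. The summed cardiomyocyte level was 56568 to 93646 CPM in wild-type castrated and 66254 to 119729 CPM in wild-type sham libraries, and the fibroblast sum 992 to 1266 CPM and 862 to 1110 CPM. In gene-trap sham against wild-type sham ventricles, 3 cardiomyocyte, 4 endothelial, 2 erythroid and 1 leukocyte markers were lower and 1 cardiomyocyte and 2 fibroblast markers higher; the cardiomyocyte sum was 62596 to 77446 CPM in gene-trap sham libraries. In the interaction, 4 cardiomyocyte, 3 erythroid and 1 endothelial markers had a more positive and 1 cardiomyocyte and 1 fibroblast marker a more negative castration effect in gene-trap ventricles. No gene of the 12693 tested passed the interaction without gene-trap castrated replicates 1 to 4. An atrial marker was lower in wild-type castrated ventricles; no smooth muscle or adipocyte marker passed in any of the 5 comparisons, and no marker of any list passed in the 2 comparisons of gene-trap castrated ventricles. Of all genes tested, 40.3% passed for castration in wild type, 26.3% for the trap in sham and 20.1% in the interaction. The part of these markers in the differences of the 34 genes was not tested. In bulk tissue, fewer cells of a type and less RNA per cell cannot be told apart.

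The genes that fell had, by their median, more GC-rich transcript ends than the other genes. The 8 genes lower in gene-trap sham ventricles had 49.8% to 60.0% GC (median 54.3%) in the last 400 nt of their transcripts, and the 24 genes that did not pass had a median of 44.1%. In wild-type castrated ventricles the 10 lower genes had a median of 53.2% GC and the 8 higher genes of 43.2%, with Bckdhb (39.8%, lower) and Pccb (53.5%, higher) against this order. Across the 34 genes, the correlation of GC content with the log2 fold change was -0.65 for the trap in sham, -0.55 for castration in wild type, 0.26 for the trap in castrated and -0.05 for castration in gene-trap ventricles (Pearson's r, a description over genes that share the same libraries). The slope of log2 expression on GC content over all genes, per 10 percentage points, was -0.20 to 0.08 in gene-trap sham, -0.22 to 0.26 in gene-trap castrated, -0.26 to 0.07 in wild-type castrated and 0.04 to 0.43 in wild-type sham libraries. The lowest wild-type sham slope was that of replicate 6, and the highest wild-type castrated slope that of replicate 5.

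With each library's GC trend removed, Idh3g, Mdh2, Got2 and Bckdha were still lower in gene-trap sham ventricles, with log2 fold changes of -0.67, -0.65, -0.45 and -0.46. Bckdk was at -0.21 and Bcat2 at -0.15 and neither passed. In all 8 genes passed in that fit, 3 higher (Idh3b, Sdhc and Pccb) and 5 lower, with Bckdhb the fifth, against 19.4% of all genes. For castration in wild type 14 genes passed, 7 in each direction, and 12 of them were among the 18 above; of all genes 32.1% passed. Mdh2 was at -0.62, Idh3g at -0.76, Bckdk at -0.29, Sdhd at 2.55 and Fh1 at 0.70, all past the threshold. Bckdha (-0.24), Bcat2 (-0.27) and Sdhb (-0.21) did not pass, and Idh2 changed sign, to 0.016.

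**Figure D3:**
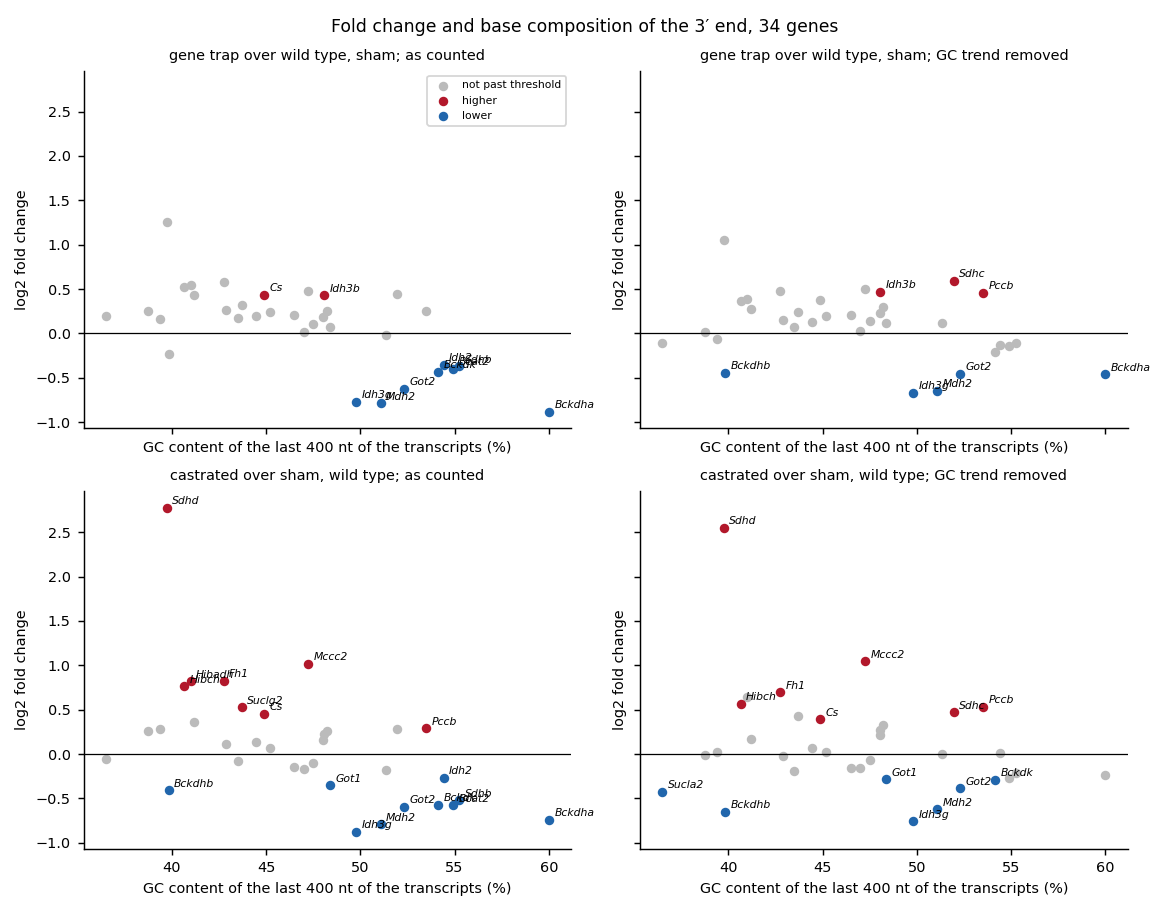
Log2 fold change (vertical axis) against the GC share of the final 400 nt of each gene's transcripts (horizontal axis, percent) for the 34 genes, for the trap in sham (top) and castration in wild type (bottom), as counted (left) and with each library's GC trend removed (right); coloured genes passed an adjusted p of 0.05. As counted, the genes that fell lie mostly at the GC-rich side, and Idh3g, Mdh2 and Got2 stay below 0 in all panels.

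In mice without testes the trap changed none of the 34 genes at the threshold. Of all 11693 genes tested 0.205% passed, 0.0941% higher and 0.111% lower. The groups overlapped for all 34, and did not for 0.402% of all genes. At an unadjusted p below 0.05, 6 of the 34 were higher and 1 lower in edgeR's fit. The share of all genes at that unadjusted p was not counted, so these counts have no background beside them. The median log2 fold change was 0.058 over the 34 and 0.0048 over all genes tested. The nearest to the threshold was Mdh1, the cytosolic malate dehydrogenase, with 1798, 2086 and 2256 CPM in gene-trap castrated and 1356, 1419 and 1901 CPM in wild-type castrated libraries. All gene-trap castrated libraries except replicates 5 and 6 lay above every wild-type castrated library, and the log2 fold change was 0.45 (± 0.10 SE; adjusted p = 0.060 by edgeR).

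Mdh1 passed in several other fits of the same libraries. It was the 1 gene called when all 4 groups were fitted together, with the GC trend removed (0.49, adjusted p = 0.032), without gene-trap castrated replicate 5 or without wild-type castrated replicate 1. Mdh1 and Idh3b were the 2 genes called by DESeq2's test and without wild-type castrated replicate 2. In the authors' deposited table both were higher in gene-trap castrated ventricles, with log2 ratios of wild type over gene trap of -0.43 (adjusted p = 0.00064) for Mdh1 and -0.32 (adjusted p = 0.033) for Idh3b. Of all genes with an adjusted p in that table, 4.92% passed. Without gene-trap castrated replicates 1 to 4 the log2 fold change of Mdh1 was 0.38 (± 0.12 SE; adjusted p = 0.32 by edgeR).

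The 2 sets of gene-trap castrated libraries differed in several of the genes. Idh3g had 289 to 471 CPM in gene-trap castrated replicates 1 to 4 and 192 to 222 CPM in replicates 5 to 7. Bckdha had 72.1 to 113 CPM in replicates 1 to 4 and 41.6 to 47.1 CPM in replicates 5 to 7, and Bckdk 106 to 152 CPM and 75.0 to 87.7 CPM. The slope on GC content was 0.01 to 0.26 in replicates 1 to 4 and -0.22 to -0.14 in replicates 5 to 7, and the share of reads aligned to several places 45.9% to 46.8% and 42.4% to 43.4%. The part of these measures in the differences was not tested. These sets were seen in the data and are no groups of the study, so no test was made between them. With all libraries, Bckdha had a log2 fold change of 0.14 (SE 0.20) in gene-trap castrated against wild-type castrated ventricles. Without replicates 1 to 4, which held its highest values in the group, it was at -0.55 and did not pass. That value follows from the choice of libraries left out and is no result about the trap.

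Castration changed none of the 34 genes at the threshold in gene-trap ventricles. Of all 12291 genes tested 0.407% passed, 0.155% higher and 0.252% lower. Here too the groups overlapped for all 34, and did not for 0.594% of all genes. At an unadjusted p below 0.05, 2 of the 34 were higher and 4 lower in edgeR's fit, where the smallest adjusted p was 0.17. Here too the share of all genes at that unadjusted p was not counted. DESeq2 called 0 of the 34, and 433 of the 7286 genes with an adjusted p in its fit (5.94%). Log2 fold changes ran from -0.24 to 0.52, with Mdh2 at -0.06 (SE 0.14), Idh3g at 0.32 (SE 0.19), Bckdk at 0.09 (SE 0.13) and Sdhd at 0.46 (SE 0.57). Suclg2 had 69.7, 74.0 and 110 CPM in gene-trap castrated and 51.9, 71.4 and 80.5 CPM in gene-trap sham libraries, and Sucla2 635, 733 and 883 CPM and 775, 924 and 953 CPM. Ppm1k had 142, 158 and 184 CPM in gene-trap castrated libraries, within its gene-trap sham range.

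The castration effect differed between genotypes for 6 of the 34 genes, 5 more positive and 1 more negative in gene-trap than in wild-type ventricles. Of all 12291 genes tested 20.1% passed this interaction test, 11.8% more positive and 8.36% more negative, so 6 of 34 lay near the background. The difference was 1.19 (± 0.27 SE; adjusted p = 0.0064 by edgeR) for Idh3g, 1.03 (SE 0.26) for Bckdha, 0.74 (SE 0.21) for Bcat2, 0.73 (SE 0.20) for Mdh2 and 0.67 (SE 0.18) for Bckdk on the log2 scale. For Sdhd it was -2.32 (± 0.82 SE; adjusted p = 0.048 by edgeR), a call that held in 7 of 26 fits without 1 library and in neither the fit with the replicate number as a block nor that with no filter on low counts. The block fit of the 4 groups leaves out replicates 6 and 7, since not every group holds them.

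Without gene-trap castrated replicates 1 to 4, 0 of the 34 genes, and 0 of 12693 genes in all, passed in edgeR's test. Of the 34, 2 had an unadjusted p below 0.05, for which no share of all genes was counted. In that fit Idh3g was at 0.57 (± 0.22 SE, adjusted p = 0.28 by edgeR) and Mdh2 at 0.50 (± 0.22 SE, adjusted p = 0.32 by edgeR). That fit has 3 libraries in the gene-trap castrated group, and lost calls in it do not show that the differences came from the libraries left out. Without wild-type sham replicate 6 the count was 11 (29.6% of all genes), and without it and wild-type castrated replicate 5 it was 13 (35.1%). With the GC trend removed 2 genes passed, Idh3g at 1.05 and Mdh2 at 0.54, against 11.1% of all genes.

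Ratios of paired genes within a library do not depend on how libraries are scaled, but the paired genes differ in GC content and the ratios are not corrected for it. They were formed for 8 pairs, as log2 of the counts with 0.5 added, and compared in the 4 comparisons with two-sided exact permutation tests, adjusted over the 32 tests. In gene-trap sham ventricles 4 ratios were lower. The mitochondrial to cytosolic ratio Mdh2/Mdh1 was -0.42 ± 0.34 in gene-trap sham and 0.52 ± 0.54 in wild-type sham libraries (SD, n = 6 each; exact permutation test, adjusted p = 0.030). The mitochondrial to cytosolic ratio Got2/Got1 was -1.02 ± 0.27 in gene-trap sham and -0.32 ± 0.28 in wild-type sham libraries (exact permutation test, adjusted p = 0.023).

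The kinase to phosphatase ratio Bckdk/Ppm1k was -0.72 ± 0.21 in gene-trap sham and -0.03 ± 0.34 in wild-type sham libraries, and the subunit ratio Bckdha/Bckdhb 0.26 ± 0.13 and 0.90 ± 0.28 (exact permutation tests, adjusted p = 0.023 for both). For both ratios every gene-trap sham library lay below every wild-type sham library, and the raw p of 0.0022 was the smallest that 6 against 6 libraries allow. The transcript ends of Bckdha and Bckdhb had 60.0% and 39.8% GC, and with each library's GC trend taken out of the ratios, a step added after seeing the data, the Bckdha/Bckdhb difference was -0.03 and did not pass. The differences of Mdh2/Mdh1 (-0.71), Got2/Got1 (-0.58) and Bckdk/Ppm1k (-0.36) still passed.

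In wild-type castrated ventricles, Bckdk/Ppm1k was -0.72 ± 0.13 (n = 7) against -0.03 ± 0.34 (n = 6) in wild-type sham, with an exact permutation p of 0.00058, the smallest possible here, and 0.019 after adjustment. Mdh2/Mdh1 was -0.19 ± 0.33 in wild-type castrated and 0.52 ± 0.54 in wild-type sham libraries, and Sucla2/Suclg2 3.29 ± 0.30 and 3.95 ± 0.64 (exact permutation tests, adjusted p = 0.042 for both). Mccc1/Mccc2 was 3.03 ± 0.48 in wild-type castrated and 3.96 ± 0.31 in wild-type sham libraries (exact permutation test, adjusted p = 0.023). Got2/Got1, which was lower in gene-trap sham, was -0.59 ± 0.49 in wild-type castrated libraries and did not pass (exact permutation test, adjusted p = 0.41).

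Mdh2/Mdh1 and Sucla2/Suclg2 each passed for castration in wild type in 4 of 13 runs without 1 library, and Bckdk/Ppm1k and Mccc1/Mccc2 in 13 of 13. The runs that lost Mdh2/Mdh1 and Sucla2/Suclg2 left out wild-type sham replicate 1, 3 or 4 or wild-type castrated replicate 1, 2, 3, 4, 6 or 7. Without wild-type sham replicate 6 and wild-type castrated replicate 5 together, those 4 ratios passed, as did Idh3a/Idh2 (difference 0.81) and Pcca/Pccb (-0.18), while Got2/Got1 was at -0.47 (exact permutation test, adjusted p = 0.069). With the GC trend taken out, Mdh2/Mdh1 was at -0.43 and did not pass, Bckdk/Ppm1k (-0.28), Mccc1/Mccc2 (-1.004) and Sucla2/Suclg2 (-0.93) passed, and Pcca/Pccb (-0.47) passed too.

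In the other comparisons 3 ratios passed. Mdh2/Mdh1 was lower in gene-trap castrated ventricles, at -0.71 ± 0.18, than in wild-type castrated ones, at -0.19 ± 0.33 (n = 7 each; exact permutation test, adjusted p = 0.023). Pcca/Pccb, the ratio of the propionyl-CoA carboxylase subunits, was -0.92 ± 0.18 in gene-trap castrated and -1.20 ± 0.17 in wild-type castrated libraries (exact permutation test, adjusted p = 0.042). Sucla2/Suclg2 was 3.24 ± 0.31 in gene-trap castrated and 3.73 ± 0.28 in gene-trap sham libraries (n = 7 and 6; exact permutation test, adjusted p = 0.042). The Mdh2/Mdh1 difference between the castrated groups passed also without gene-trap castrated replicates 1 to 4; the Pcca/Pccb difference was then 0.23 and the Sucla2/Suclg2 difference -0.22, and neither passed. Pcca/Pccb in castrated mice passed in 4 of 14 runs without 1 library, those without gene-trap castrated replicate 3, 5 or 6 or wild-type castrated replicate 5, and Sucla2/Suclg2 in gene-trap mice in 4 of 13, those without gene-trap sham replicate 7 or gene-trap castrated replicate 5, 6 or 7. Exons of Ggact lie antisense to the end of Pcca, and those of B230207O21Rik to that of Mccc1.

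**Figure D4:**
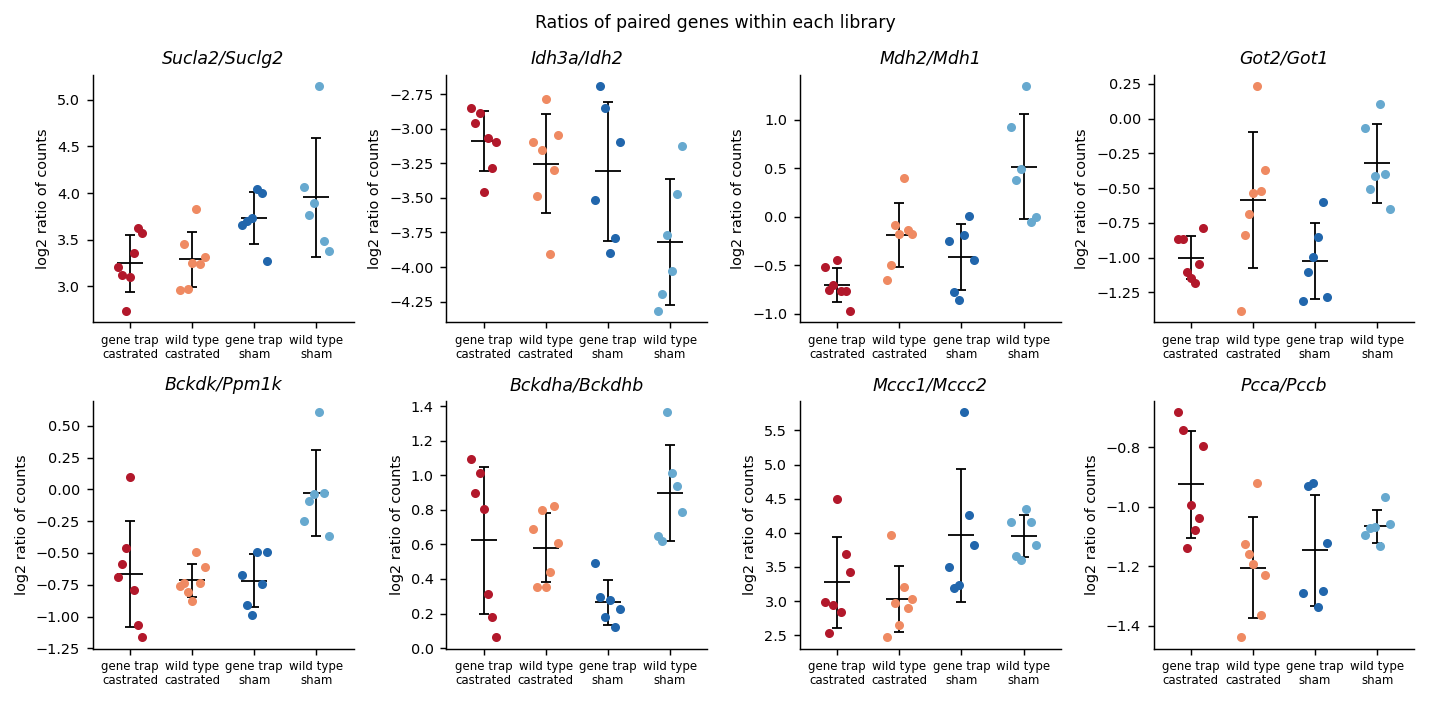
Log2 ratio of the counts of 8 gene pairs (vertical axes, which do not start at 0) in each library (points) of the 4 groups, with group means and ± 1 SD (n = 7, 7, 6 and 6 from left to right). Bckdk/Ppm1k was -0.03 ± 0.34 in wild-type sham libraries and between -0.72 and -0.66 on average in the other groups, and Mdh2/Mdh1 was highest in wild-type sham.

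Of 38 other genes of the same pathways (aconitases, pyruvate dehydrogenase, carriers, assembly factors and further branched-chain steps), 37 were tested. With the trap in sham ventricles 6 rose and 6 fell, where 11.9% of all genes tested were higher and 14.3% lower. With castration in wild type 7 rose and 9 fell, where 19.1% of all genes were higher and 21.3% lower. In the interaction 9 had a more positive and 2 a more negative castration effect in gene-trap ventricles, against 11.8% and 8.36% of all genes. Without gene-trap castrated replicates 1 to 4, 0 of 12693 genes passed the interaction test. None of the 37 passed for the trap in castrated ventricles or for castration in gene-trap ventricles in edgeR's test. Of all genes 0.205% and 0.407% passed there. Pdhx, the subunit that anchors the third component of pyruvate dehydrogenase, averaged 288 ± 8.41 CPM in gene-trap sham and 204 ± 21.6 CPM in wild-type sham libraries (log2 fold change 0.51 ± 0.10 SE; adjusted p = 0.0017 by edgeR). Slc25a12, an aspartate-glutamate carrier of the shuttle, averaged 172 ± 25.1 CPM in wild-type castrated and 241 ± 27.8 CPM in wild-type sham libraries (log2 fold change -0.49 ± 0.11 SE; adjusted p = 0.0010 by edgeR).

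Sdhaf1, an assembly factor of the iron-sulfur subunit of complex II, averaged 31.5 ± 4.13 CPM in wild-type castrated and 55.7 ± 11.01 CPM in wild-type sham libraries (log2 fold change -0.82 ± 0.18 SE; adjusted p = 0.0011 by edgeR). Sdhb was lower in the same comparison, but did not pass with the GC trend removed, and a link between Sdhaf1 and Sdhb was not tested. The other assembly factors listed averaged higher in wild-type castrated than in wild-type sham libraries. Sdhaf2 averaged 47.9 ± 6.38 against 34.6 ± 6.49 CPM, Sdhaf3 13.8 ± 3.46 against 11.3 ± 2.42 CPM and Sdhaf4 54.4 ± 8.11 against 44.9 ± 8.90 CPM. Slc25a1, the mitochondrial citrate carrier, had the smallest interaction p of the 37, with a difference of 1.52 (± 0.34 SE; adjusted p = 0.0062 by edgeR). It averaged 5.84 ± 1.38 CPM in gene-trap castrated, 4.64 ± 1.35 CPM in wild-type castrated, 3.75 ± 1.14 CPM in gene-trap sham and 8.51 ± 2.89 CPM in wild-type sham libraries. Pdhx, Slc25a12, Sdhaf1 and Slc25a1 are named for their small p. Their values with the GC trend removed or without single libraries were not obtained.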

How the data were processed

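Left ventricle RNA was made into QuantSeq 3′ forward libraries, per the labels' protocols. The deposited tables, 1 for each surgery, hold whole-number counts per gene and library with no normalization, and the authors' own comparison of wild type over gene trap (log2 fold change, p-value and adjusted p-value), per the file headers. The builds mm10 and GRCm38 and the tools featureCounts 1.6.0, STAR, DESeq2 1.22.2, CASAVA 1.4 and FastQC are named in the submitters' processing notes; which step each served and the strand setting are not given in the sources used here. Reads aligned to several places (41.9% to 46.8% of a column), to no gene (2.66% to 4.62%) or to several genes (0.277% to 0.358%) stayed out of library sizes, and 4984 genes listed without counts were left out. The limits that counts allow cover counting error only. No 2 libraries held the same values.

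The 34 genes, the marker and pathway lists, the pairs and the tests were chosen with earlier results of these data known. Groups came from the sample titles. Counts were fitted over all genes with edgeR 4.0.16 (R 4.3.3; TMM scaling, filterByExpr, robust quasi-likelihood F test) and Benjamini-Hochberg adjustment, threshold 0.05. Genotype was tested within each surgery's libraries, and castration and the interaction in a fit with 4 group means. Each standard error is the size of the log2 fold change divided by the root of its F statistic. CPM use the scaling of all 26 libraries. Values by library are given for the up to 5 called genes with the smallest p in each comparison and for Bckdk, Ppm1k, Bcat2, Suclg2 and Sucla2; those of Sdhd, Fh1, Hibadh and Mdh1 beyond this rule, and the sets of gene-trap castrated libraries, were chosen after their values were seen. Of the other pathway genes, the 4 with the smallest p are named. GC content and shared words of 31 bases come from the last 400 nt of GENCODE M21 transcripts on GRCm38. Alternatives were DESeq2 1.42.0, its size factors, no filter, the replicate number as a block, removal of the GC trend, other groupings of libraries, the authors' adjusted p, 5 in place of 0.5 added to counts, and leaving out libraries. The fits were also run on simulated counts with known changes. Those had 1 spread setting for all genes (dispersion 0.05) and neither a GC trend nor stray libraries. They therefore cannot tell how such features of the data affect the calls.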

Additional observations from a re-analysis of the deposited data

Results flagged for a closer look

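By the interaction test, the log2 fold change of castrated over sham was not equal in the 2 genotypes for 6 of the 34 genes (17.6%). Of all 12291 genes tested 20.1% passed, so 6 of 34 lay near the background. The difference (gene trap minus wild type, log2 scale) was 1.19 for Idh3g, 1.03 for Bckdha, 0.74 for Bcat2, 0.73 for Mdh2, 0.67 for Bckdk and -2.32 for Sdhd. Without gene-trap castrated replicates 1 to 4, 0 of the 34 and 0 of all 12693 genes passed.

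Single libraries far from the rest of their group were looked for in 168 sets of values (34 genes and 8 ratios in 4 groups). The rule marks about 1 in 20 sets, or 8.4, if values are normally distributed and sets independent. CPM were not transformed and the sets share libraries, so the number to expect by chance here is not known. In all, 21 were found. Wild-type castrated replicate 5 accounted for 7: it was high for Idh3g (373 CPM), Sdhb (1919 CPM), Mdh2 (1847 CPM), Got2 (663 CPM) and Bckdhb (64.4 CPM) and low for Fh1 (157 CPM) and Hibadh (131 CPM). Wild-type castrated replicate 2 accounted for 6, all high: Idh3b (1110.3 CPM), Dlst (849 CPM), Suclg1 (906 CPM), Sdha (1339.8 CPM), Mdh1 (1901 CPM) and Pcca (46.2 CPM). Gene-trap castrated replicate 4 was low for Cs (379.9 CPM) and Dld (183 CPM) and high for Sdha (1396 CPM). The others were Suclg2 in gene-trap castrated replicate 3 (110.3 CPM, high), Sdhd in wild-type castrated replicate 4 (329 CPM, high), Sdhd in wild-type sham replicate 6 (50.1 CPM, high), Got2 in gene-trap sham replicate 5 (596 CPM, high) and the Bckdk/Ppm1k log2 ratio in wild-type sham replicate 4 (0.61, high).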

How the results depend on the processing

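The 10 genes called for the trap in sham became 16 with the replicate number as a block (32.3% of all genes) and 5 by the authors' deposited adjusted p (11.9%). The block fit keeps only replicate numbers that every group in it holds. In sham mice it leaves out gene-trap sham replicate 7 and wild-type sham replicate 6, and leaving out the latter alone gave 17 genes. The effect of the block was not told apart from that of the libraries left out. Whether the numbers pair the samples is not known here. Deviations of same-numbered libraries from their group means correlated at -0.40 to 0.32 over the 4 comparisons. Differently numbered libraries were not compared, so these values cannot decide it. The block moved no other count by over 1.5 times. For the trap in castrated, 0 called genes became 2 with DESeq2 or by the authors' deposited adjusted p, and 1 with the GC trend removed or with all 4 groups fitted together. Of all genes, 6.05%, 4.92%, 0.822% and 2.09% passed in these fits, in that order. The 6 interaction calls became 2 with the GC trend removed, 0 without gene-trap castrated replicates 1 to 4, and 13 without wild-type sham replicate 6 and wild-type castrated replicate 5, a fit added after seeing the data. Idh2 for castration in wild type changed sign with the GC trend removed (0.016). Leaving out 1 library gave 5 to 17 calls for the trap in sham, 0 to 2 for the trap in castrated, 14 to 23 for castration in wild type, 0 for castration in gene trap and 5 to 11 for the interaction. The 4 ratios that passed for the trap in sham were 4 in all such runs; the counts of ratios were 1 to 2 for the trap in castrated, 2 to 6 for castration in wild type and 0 to 1 for castration in gene trap. Without gene-trap castrated replicates 1 to 4 they were 1 for the trap in castrated and 0 for castration in gene trap. With the GC trend taken out of the ratios, a step added after seeing the data, castration in gene trap had 2 in place of 1, and the other counts were as before, with partly other ratios. Of 34 calls of a gene in a comparison, 24 held in every run without 1 library. Beyond the construction of these fits (fewer samples, another trend), the cause was not tested.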
